A study of Mus musculus with 12 samples.

Results

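The renin-angiotensin system was followed through 9 of its genes among the 35275 listed in kidneys of mice with polycystic kidney disease. Agt, Ren1, Ace, Mme, Enpep, Agtr1a, Agtr1b, Atp6ap2 and Nr3c2 were chosen by symbol, and each was read from the row with the most reads for that symbol. RNA from whole kidneys of 12 C57BL/6J mice at 6 months of age was sequenced, with 4 WT mice, 4 RC/RC mice and 4 RC/RC:Casp1KO mice and, per the labels, 2 females in each group of 4. RC/RC mice are homozygous for RC, a knock-in missense allele of Pkd1 that lowers polycystin-1 function and gives slowly progressing cysts, and carry an intact Casp1 gene. RC/RC:Casp1KO mice are homozygous for RC and also for a disrupted Casp1 allele, which was made with TALENs in zygotes, comes from 1 line and is present in every cell type, so that a difference cannot be assigned to a cell type. WT mice carry neither allele. The deposited columns name the group and a mouse number but not the sex, so the sexes were analyzed together. Mice are named here by group and column number, and the values of a group are always given in the order WT2, WT3, WT4 and WT6 for WT mice, RC105, RC139, RC140 and RC143 for RC/RC mice, and KO42, KO60, KO70 and KO105 for RC/RC:Casp1KO mice.

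In this system the protease renin, released by juxtaglomerular cells of the afferent arteriole, cuts angiotensinogen to angiotensin I, and angiotensin-converting enzyme trims that peptide to angiotensin II. Angiotensin II acts on the AT1 receptor to constrict vessels, to raise sodium uptake in the tubule, to restrain renin release and, in the adrenal gland, to raise aldosterone, which acts on the mineralocorticoid receptor in the distal nephron. The kidney holds its own angiotensinogen, converting enzyme and degrading peptidases, most of them in the proximal tubule, so that the hormone can also be formed and cleared locally. In polycystic kidneys the system is a known drug target because of the high blood pressure that accompanies the disease.

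The libraries held 20556335 to 22656309 counted reads in WT mice, 18019819 to 24284831 in RC/RC mice and 18738755 to 24869454 in RC/RC:Casp1KO mice. Levels are given as CPM, counts scaled to the same total in each library and adjusted with TMM factors, and, where different genes are set side by side, as FPKM, the same value per kilobase of gene length. Groups were compared in pairs with edgeR's quasi-likelihood test over all genes, and a gene was called when its Benjamini-Hochberg adjusted p was under 0.05. Values after ± are the SD over 4 mice. The kidney was the source of every library, and in whole tissue fewer cells of a type and less RNA per cell cannot be told apart.

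The knockout was read first. Casp1 was at 2.05, 1.29, 1.31 and 1.41 CPM in WT mice, at 3.33, 3.87, 4.24 and 2.62 CPM in RC/RC mice and at 0.665, 0.382, 1.06 and 0.667 CPM in RC/RC:Casp1KO mice. The 4 knockout libraries lay below all others, although 10 to 23 reads were still counted on Casp1 in each. The log2 fold change of RC/RC:Casp1KO against RC/RC was -2.35 (SE 0.32, adjusted p = 0.00514, edgeR's quasi-likelihood test), that of RC/RC against WT was 1.21 (SE 0.25, adjusted p = 0.0142), and that of RC/RC:Casp1KO against WT, -1.12 (SE 0.35, adjusted p = 0.128), did not pass. Pkd1, whose RC allele differs from the normal one in its coding sequence, passed in none of the comparisons by the same test (RC/RC against WT 0.06, SE 0.20, adjusted p = 0.878).

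Per kilobase, 6 of the 9 genes had means of 37.5 to 65.2 FPKM in WT kidneys, and Agtr1a, the mineralocorticoid receptor gene Nr3c2 and above all Agtr1b stood lower. The FPKM means ran from Ren1 at 65.2 ± 40.2 and Atp6ap2 at 58.1 ± 12.3 through Ace at 44.5 ± 13.0, Mme at 43.9 ± 17.0, Agt at 40.3 ± 10.5 and Enpep at 37.5 ± 1.79 to Agtr1a at 24.8 ± 2.62. Neighbours from Ren1 to Enpep lay within the larger SD of each pair, except that Atp6ap2 exceeded Ace by slightly more than either SD. Agtr1a lay below Enpep by more than the SD of either. Nr3c2 followed at 4.18 ± 0.762 FPKM, and the highest Agtr1b library held 5 reads in all. In RC/RC kidneys the order was changed at its top, with Agt at 47.2 ± 7.99, Atp6ap2 at 46.1 ± 7.54, Mme at 40.2 ± 22.7, Ace at 37.7 ± 15.6 and Ren1 at 37.3 ± 14.8 FPKM, each neighbouring pair within its larger SD. Mme, at 52.8 ± 20.7, and Ace, at 51.4 ± 15.3 FPKM, led the list in RC/RC:Casp1KO kidneys, and Ren1 was at 29.9 ± 16.2 FPKM, between Enpep at 37.7 ± 9.96 and Agtr1a at 21.4 ± 2.43.

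**Figure D1:**
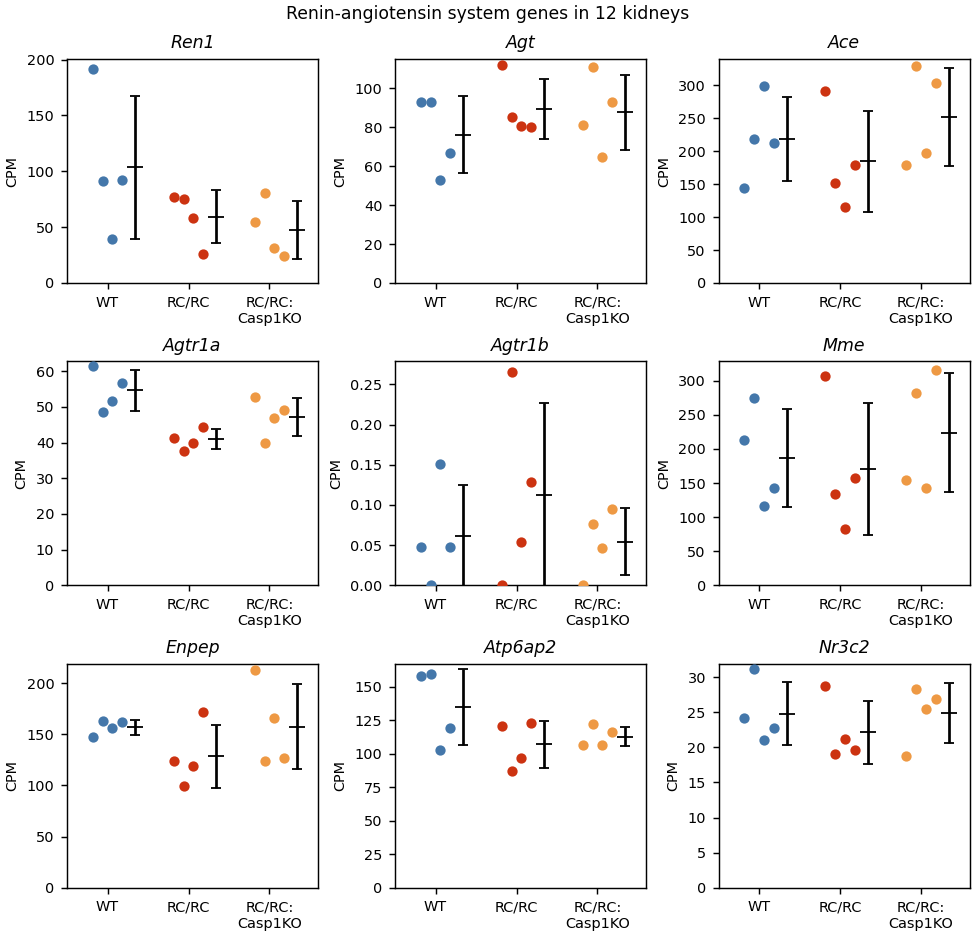
Levels of the 9 genes (y axes, CPM from 0, a different scale in each panel) in the 12 kidneys by group (x axes), with a point for each mouse and, beside the points, the mean with the SD of 4 mice. The RC/RC points of Agtr1a, 37.7 to 44.4 CPM, lie below all WT points, while in the other panels RC/RC and WT overlap.

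Across the system, 1 of the 8 genes with enough reads to be tested was called in RC/RC against WT, the receptor gene Agtr1a, which was lower in RC/RC. Over all 15243 genes tested in that comparison 12.9% were called, 9.76% higher and 3.18% lower in RC/RC, so that 1 gene of 8 is close to the share among all genes. Agtr1a was also the 1 gene of the 8 whose RC/RC and WT mice did not overlap, against 19.6% of all genes in either direction and 7.05% with RC/RC lower. The log2 fold changes of 7 of the 8 lay below 0, and their median was -0.26, where the median of all genes tested was -0.02. In RC/RC:Casp1KO against RC/RC none of the 8 was called by edgeR's test, by DESeq2 or by limma, where edgeR called 11.6% of 15428 genes, 7.23% higher and 4.41% lower, and none had an unadjusted edgeR p under 0.05, where 4889 of the 15428 genes did. No group of mice stood apart from the other, where 20.4% of all genes showed no overlap, 11.8% higher and 8.65% lower. Of the 8 log2 fold changes 6 lay above 0, with a median of 0.18, against -0.03 for all genes. In RC/RC:Casp1KO against WT none was called by any of these tools, where edgeR called 2.03% of 15346 genes, 1.13% higher and 0.893% lower, and none had an unadjusted edgeR p under 0.05, where 3343 of the 15346 genes did. None stood apart, where 13.9% of all genes did, 7.41% higher. The median was 0.01 for the 8 genes and 0.01 for all.

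**Figure D2:**
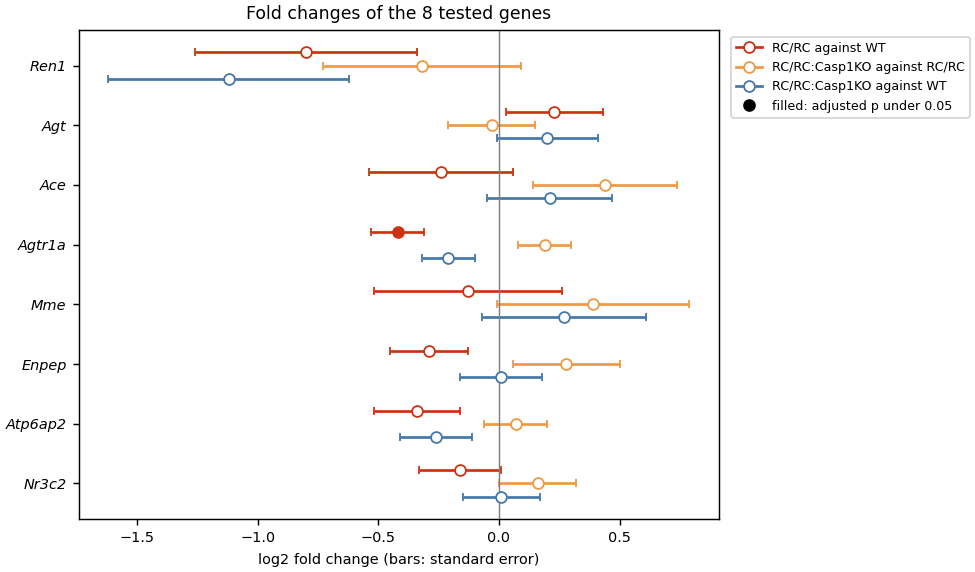
Log2 fold changes (x axis) of the 8 tested genes (y axis) in the 3 comparisons from edgeR, with bars of 1 SE on either side and filled points for an adjusted p under 0.05. The filled point is Agtr1a in RC/RC against WT, at -0.42, and the longest bars are those of Ren1.

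The substrate came first in the chain. Agt (ENSMUSG00000031980, chr8:124556534-124569706 on the minus strand of mm10) encodes angiotensinogen, from which all angiotensins are cut. It was at 92.8, 92.8, 52.8 and 66.5 CPM in WT mice, at 112, 85.1, 80.4 and 79.9 CPM in RC/RC mice, and at 81.2, 111, 64.9 and 93.1 CPM in RC/RC:Casp1KO mice. WT4, WT6 and KO70 were low and the groups overlapped throughout. RC/RC differed from WT by a log2 fold change of 0.23 (SE 0.20, adjusted p = 0.464), RC/RC:Casp1KO from RC/RC by -0.03 (SE 0.18, adjusted p = 0.913) and from WT by 0.20 (SE 0.21, adjusted p = 0.595, edgeR).

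Ren1 (ENSMUSG00000070645, chr1:133350510-133360325, plus strand) encodes renin, whose release sets the pace of the whole cascade. The WT mice alone spanned 192, 91.7, 39.0 and 92.2 CPM. RC/RC mice were at 77.3, 75.5, 58.6 and 26.3 CPM, and RC/RC:Casp1KO mice at 54.9, 80.6, 31.0 and 23.8 CPM. Every mouse with the RC allele therefore lay below WT2, WT3 and WT6, and WT4 fell among them. The means were 104 ± 64.0 CPM in WT, 59.4 ± 23.6 in RC/RC and 47.6 ± 25.8 in RC/RC:Casp1KO kidneys. None of the differences passed edgeR's test, with log2 fold changes of -0.80 for RC/RC against WT (SE 0.46, adjusted p = 0.274), -0.32 for RC/RC:Casp1KO against RC/RC (SE 0.41, adjusted p = 0.628) and -1.12 for RC/RC:Casp1KO against WT (SE 0.50, adjusted p = 0.234). The interval of 2 SE around the value for RC/RC against WT ran from -1.72 to 0.11, so a fall of Ren1 by more than a log2 unit and no change were both within reach of these 8 mice. WT2 alone moved that value to -0.33 when it was left out (adjusted p = 0.612) and WT4 to -1.11 (adjusted p = 0.102), neither of them past the threshold. For RC/RC:Casp1KO against WT the interval ran from -2.12 to -0.12 (unadjusted p = 0.0517, edgeR), and the value lay between -1.50 without KO60 and -0.64 without WT2, past the threshold in none of these fits.

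Peptidases that form and clear angiotensin II came next. Ace (ENSMUSG00000020681, chr11:105967945-105989964, plus strand), the converting enzyme, was at 144, 219, 299 and 212 CPM in WT mice, at 292, 152, 115 and 179 CPM in RC/RC mice and at 179, 329, 197 and 303 CPM in RC/RC:Casp1KO mice. High and low mice occurred in each group, and the log2 fold changes were -0.24 for RC/RC against WT (SE 0.30, adjusted p = 0.621, edgeR), 0.44 for RC/RC:Casp1KO against RC/RC (SE 0.30, adjusted p = 0.338) and 0.21 for RC/RC:Casp1KO against WT (SE 0.26, adjusted p = 0.658).

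Mme (ENSMUSG00000027820, chr3:63295872-63382231, plus strand) encodes neprilysin, a brush border peptidase that degrades angiotensins and natriuretic peptides. It was the most variable of the peptidases, at 213, 275, 116 and 142 CPM in WT mice, at 307, 134, 82.8 and 157 CPM in RC/RC mice and at 155, 282, 143 and 316 CPM in RC/RC:Casp1KO mice. The groups overlapped over most of their ranges. The log2 fold change of RC/RC against WT was -0.13 (SE 0.39, adjusted p = 0.855, edgeR), and it had no steady direction, at -0.59 without RC105, 0.10 without RC140 and 0.12 without WT3. That of RC/RC:Casp1KO against RC/RC was 0.39 (SE 0.40, adjusted p = 0.528, edgeR) and that of RC/RC:Casp1KO against WT 0.27 (SE 0.34, adjusted p = 0.659). Enpep (ENSMUSG00000028024, chr3:129269175-129332720, minus strand) encodes aminopeptidase A, which removes the first residue of angiotensin II. Its WT values lay close together, at 147, 163, 156 and 162 CPM, whereas RC/RC mice were at 124, 99.2, 119 and 172 CPM and RC/RC:Casp1KO mice at 213, 124, 166 and 127 CPM. RC105, RC139 and RC140 were below every WT mouse and RC143 was above every WT mouse. The log2 fold change of RC/RC against WT was -0.29 (SE 0.16, adjusted p = 0.277, edgeR) and became -0.46 (adjusted p = 0.042) when RC143 was left out, the single fit in which Enpep passed. RC/RC:Casp1KO differed from RC/RC by 0.28 (SE 0.22, adjusted p = 0.414) and from WT by 0.01 (SE 0.17, adjusted p = 0.973).

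Receptors held the 1 call of the system. In mice the AT1 receptor is encoded by Agtr1a (ENSMUSG00000049115, chr13:30336441-30382867, plus strand), the main form in the kidney, and by Agtr1b (ENSMUSG00000054988, chr3:20314473-20367177, minus strand), which is used mostly in the adrenal and pituitary glands. The coding sequences of the pair are 1080 bases each in the GENCODE vM39 transcripts and differ at 99 bases (90.8% identity), with a longest shared run of 66 bases. Only a read that lies wholly within a shared run could be assigned to either gene. A read of more than 66 bases within the coding sequence covers a differing base. The stretch shown, coding bases 972 to 1061 near the end of the coding exon, is the 90-base window in which they differ most, at 20 bases, and capitals mark those bases.
Agtr1a: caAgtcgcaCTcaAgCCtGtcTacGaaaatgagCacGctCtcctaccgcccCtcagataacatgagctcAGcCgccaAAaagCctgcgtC
Agtr1b: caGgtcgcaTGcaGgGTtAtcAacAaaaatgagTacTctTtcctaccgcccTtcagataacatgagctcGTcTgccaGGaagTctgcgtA

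Agtr1a was at 61.5, 48.5, 51.6 and 56.8 CPM in WT mice and at 41.4, 37.7, 40.0 and 44.4 CPM in RC/RC mice, so that all RC/RC mice lay below all WT mice. RC/RC:Casp1KO mice were at 52.7, 40.0, 46.8 and 49.1 CPM, and they overlapped with both groups. The means were 54.6 ± 5.76, 40.9 ± 2.79 and 47.1 ± 5.34 CPM. Agtr1a fell in RC/RC kidneys to 0.749 of its WT level (log2 fold change -0.42, SE 0.11, adjusted p = 0.0303, edgeR's quasi-likelihood test). RC/RC:Casp1KO differed from RC/RC by 0.19 (SE 0.11, adjusted p = 0.258) and from WT by -0.21 (SE 0.11, adjusted p = 0.299), and neither passed.

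The size of the Agtr1a difference was steady and its call was not. With each mouse left out in turn the log2 fold change stayed between -0.47 and -0.36, but the gene was called in 3 of the 8 fits, and the adjusted p was 0.0726 without WT2, 0.0902 without WT6, 0.0519 without RC105, 0.0759 without RC139 and 0.0817 without RC140 (edgeR). The gene was called in 6 of 9 other ways of processing the counts, among them DESeq2 (adjusted p = 0.00516), and missed the threshold with scaling by the library total alone (adjusted p = 0.0864), without a filter on low counts (adjusted p = 0.0523) and with limma on log2(FPKM + 1) (adjusted p = 0.0887). Reads on Agtr1b were too few to matter to the sum of both genes, which gave a log2 fold change of -0.42 (adjusted p = 0.0307, edgeR).

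Agtr1b itself was at or near the limit of detection, with 1, 0, 3 and 1 reads in WT mice, 0, 5, 1 and 3 reads in RC/RC mice and 0, 2, 1 and 2 reads in RC/RC:Casp1KO mice. It was filtered out of every comparison and no difference was detectable at this depth. With 0.5 added to each count, the mean log2 ratio of Agtr1a to Agtr1b was 9.65 ± 1.14 in WT, 8.82 ± 1.71 in RC/RC and 9.42 ± 1.03 in RC/RC:Casp1KO kidneys, a spread set by a handful of Agtr1b reads. In WT3, RC105 and KO42, with 0 reads, the added 0.5 alone set the divisor, so a test cannot decide whether the ratio changed. An exact two-sided permutation test over the 70 assignments of 8 mice, for which the smallest p is 0.0286, gave p = 0.486 for RC/RC against WT, p = 0.543 for RC/RC:Casp1KO against RC/RC and p = 0.857 for RC/RC:Casp1KO against WT. After Benjamini-Hochberg adjustment over the 6 ratio tests run, of which the other 3 are not reported here, these were 0.9, 0.9 and 1.

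Atp6ap2 (ENSMUSG00000031007, chrX:12587801-12617049, plus strand) encodes the (pro)renin receptor, which binds renin and its precursor and is also an accessory subunit of the V-ATPase, the proton pump of intercalated cells, endosomes and lysosomes. It was at 158, 160, 103 and 119 CPM in WT mice, at 121, 87.5, 97.1 and 123 CPM in RC/RC mice and at 107, 122, 107 and 116 CPM in RC/RC:Casp1KO mice. WT2 and WT3 stood above all other mice, and the remaining 10 overlapped. The log2 fold change was -0.34 for RC/RC against WT (SE 0.18, adjusted p = 0.245, edgeR), 0.07 for RC/RC:Casp1KO against RC/RC (SE 0.13, adjusted p = 0.769) and -0.26 for RC/RC:Casp1KO against WT (SE 0.15, adjusted p = 0.341).

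Nr3c2 (ENSMUSG00000031618, chr8:76899442-77245012, plus strand) encodes the mineralocorticoid receptor, through which aldosterone raises sodium uptake. Its levels were 24.1, 31.2, 21.0 and 22.7 CPM in WT mice, 28.7, 19.0, 21.2 and 19.6 CPM in RC/RC mice and 18.8, 28.3, 25.5 and 26.9 CPM in RC/RC:Casp1KO mice. The groups overlapped almost entirely. The log2 fold changes, -0.16 for RC/RC against WT (SE 0.17, adjusted p = 0.557, edgeR), 0.16 for RC/RC:Casp1KO against RC/RC (SE 0.16, adjusted p = 0.530) and 0.01 for RC/RC:Casp1KO against WT (SE 0.16, adjusted p = 0.970), had intervals of 2 SE that reached from -0.50 to 0.18, from -0.17 to 0.49 and from -0.31 to 0.33.

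Within groups the mice differed over much of the transcriptome. Xist, the RNA that coats the inactive X chromosome, held 6592 and 7520 reads in WT2 and WT3, 11364 and 5280 in RC105 and RC139 and 17320 and 16412 in KO60 and KO105, and 18 reads or fewer in the others. The Y-linked gene Ddx3y held 1029 to 1676 reads in those others and 3 or fewer in the mice with high Xist. The 2 mice of each group with high Xist and almost no Ddx3y reads have the pattern of females, whose number in the labels is the same. The Xist class of a mouse is therefore read here as its likely sex, which no column names. Of the 8 genes, 4 in WT, 2 in RC/RC and 6 in RC/RC:Casp1KO kidneys had the 2 mice over 1000 Xist reads wholly above or below the 2 others, where 67.2%, 43.2% and 43.4% of 14165 genes with a mean of at least 1 CPM did. The share among the 8 lay below that of all genes in WT and RC/RC and above it in RC/RC:Casp1KO kidneys. Agt was higher in the high-Xist mice of each group, as were 5.35% of all genes. Mme, Atp6ap2 and Nr3c2 were higher in them in the WT and RC/RC:Casp1KO groups, Ren1 in the RC/RC group and Ace in the RC/RC:Casp1KO group, in which Enpep was lower. Mas1, a receptor of a shorter angiotensin peptide, was lower in the high-Xist mice of each group, at 0.905 and 0.333 against 2.62 and 2.36 CPM in WT, 0.382 and 0.424 against 1.77 and 1.29 CPM in RC/RC and 0.764 and 0.477 against 2.33 and 1.89 CPM in RC/RC:Casp1KO kidneys, as were 6.06% of all genes. Agtr1a showed no such split in any group.

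With the Xist class of each mouse as a covariate, a fit added after seeing the data, Agtr1a stayed at -0.42 in RC/RC against WT (SE 0.11, adjusted p = 0.0242, edgeR) and no other member was called in any comparison. Ren1 was then at -0.76 in RC/RC against WT (SE 0.33, adjusted p = 0.139) and at -1.03 in RC/RC:Casp1KO against WT (SE 0.44, adjusted p = 0.145). Mme, at 0.26 in RC/RC:Casp1KO against WT, had an SE of 0.11 in place of 0.34 (adjusted p = 0.140). Over all genes the calls numbered 2784, 2640 and 1257 in RC/RC against WT, RC/RC:Casp1KO against RC/RC and RC/RC:Casp1KO against WT, in place of 1971, 1797 and 311.

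**Figure D3:**
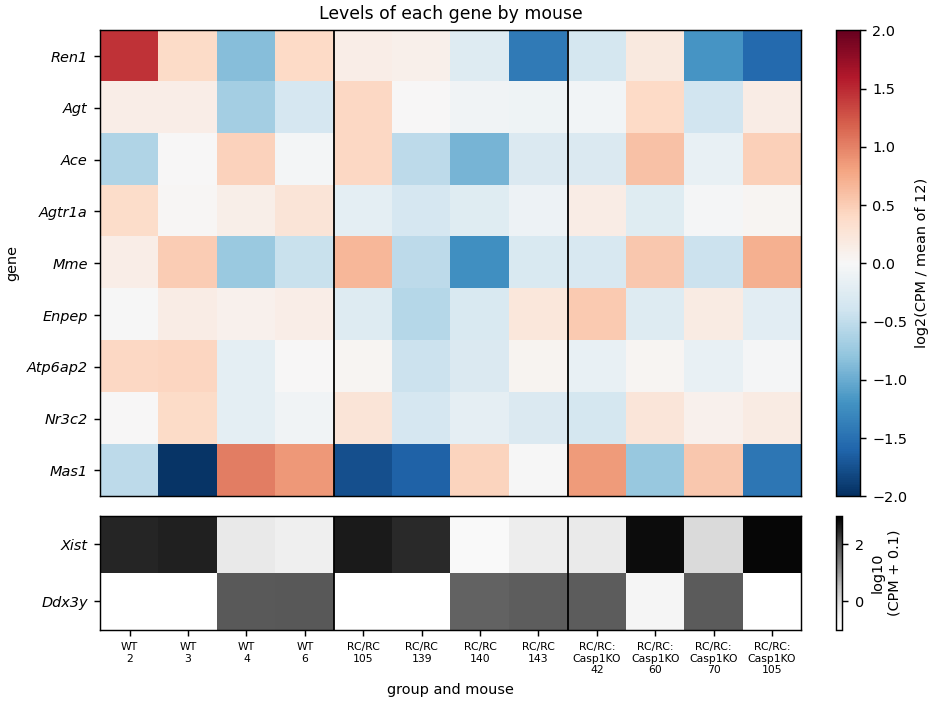
Upper panel, the level of 8 of the genes and of Mas1 (rows) in each mouse (columns, by group and mouse number) as the log2 of its CPM over the mean of 12 mice. In the lower panel, with Xist and Ddx3y as log10(CPM + 0.1), the mice with dark Xist cells are those in which Agt is high and Mas1 low within each group.

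Described by Pearson's r of log2 CPM over the 12 libraries among 14165 genes with a mean of at least 1 CPM, Agtr1a was like G630090E17Rik (0.95) and Ildr2 (0.90), and Ren1 had no close companion, with Cmtm8, Vasn and Ssbp3 at 0.87, 0.86 and 0.86. Agt was nearest to Hao2 (0.94), Prlr (0.92) and Cited2 (0.92), Ace to Kif13b (0.94), Sesn3 (0.93) and Klhl11 (0.91), and Mme to Dpp4 (0.96), another brush border peptidase, Ddx3x (0.95) and Nceh1 (0.95). Enpep was nearest to Man1a, Thtpa and Arl5a (0.95, 0.95 and 0.94), Atp6ap2 to Atp1b1, a subunit of the sodium pump, Tmem135 and Alkbh5 (0.97, 0.96 and 0.95), and Nr3c2 to Dlg3, Six4 and Rcbtb1 (0.94, 0.93 and 0.89). Agtr1b, below 1 CPM, gave 0.82 at most, with Dgat1, ahead of Artn (0.81) and Acer2 (0.79). Between the members themselves r ran from -0.52 (Agtr1b and Atp6ap2) to 0.77 (Mme and Nr3c2). The 12 points share depth, group and the Xist difference, and a high r among so many genes is a description of these libraries.

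Genes around the 9 were read from 6 lists of the pathway, whose counts stand against 9.76% of all genes higher and 3.18% lower in RC/RC against WT, 7.23% and 4.41% in RC/RC:Casp1KO against RC/RC, and 1.13% and 0.893% in RC/RC:Casp1KO against WT. Of 22 other enzymes and receptors of angiotensin metabolism 16 were tested, and in RC/RC against WT none was higher and Klk1 was lower (median of the 16, -0.14). Klk1, a tissue kallikrein that frees kinins and has close paralogs among which reads may be shared, was at 2508, 2382, 1143 and 1638 CPM in WT mice, 738, 260, 237 and 789 CPM in RC/RC mice and 363, 735, 344 and 637 CPM in RC/RC:Casp1KO mice. Every mouse with the RC allele lay below every WT mouse. The log2 fold change was -1.92 in RC/RC against WT (SE 0.45, adjusted p = 0.0212, edgeR), -1.88 in RC/RC:Casp1KO against WT (SE 0.33, adjusted p = 0.0277), which was the 1 call of the list there (median -0.20), and 0.03 in RC/RC:Casp1KO against RC/RC (SE 0.44, adjusted p = 0.972). The first call was kept in 6 of 8 fits with a mouse left out (adjusted p up to 0.0514) and the second in 3 of 8 (up to 0.0776). Against RC/RC, RC/RC:Casp1KO kidneys had higher Igf2r (0.80, SE 0.21, adjusted p = 0.0414), which binds renin precursor among other ligands, and lower levels of the proteases Ctsd (-0.46, SE 0.12, adjusted p = 0.0413) and Thop1 (-0.49, SE 0.12, adjusted p = 0.0329, list median 0.02), with calls kept in 1, 2 and 2 of 8 fits with a mouse left out. Agtr2, the AT2 receptor, had 5 reads or fewer in every mouse, and Cyp11b2, which makes aldosterone in the adrenal cortex, 1 read in KO60 and none elsewhere.

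Of 21 genes that control renin release, 3 were higher and none lower in RC/RC than in WT (median 0.21), which is close to the 12.9% of all genes called in that comparison. They were Ptgs2, the cyclooxygenase of the macula densa, and the prostaglandin receptors Ptger4 and Ptgir. Ptgs2 was at 0.334, 0.381, 0.805 and 0.283 CPM in WT mice and at 1.41, 1.22, 1.13 and 1.16 CPM in RC/RC mice, on 6 to 37 reads, without overlap (log2 fold change 1.44, SE 0.36, adjusted p = 0.0304, edgeR). Ptger4 was at 4.67, 4.38, 3.22 and 4.52 CPM in WT and 9.86, 16.5, 12.3 and 9.05 CPM in RC/RC mice, again without overlap (1.50, SE 0.22, adjusted p = 0.00315), and Ptgir rose by 1.38 (SE 0.33, adjusted p = 0.0233). Ptger4 kept its call in 8 of 8 fits with a mouse left out, Ptgir in 6 and Ptgs2 in 2 (adjusted p up to 0.0943). All 5 leukocyte and all 5 fibroblast markers read here were also higher in RC/RC than in WT, and their part in these values was not tested. When RC/RC:Casp1KO was set against RC/RC, Ptger4 (-0.84, SE 0.21, adjusted p = 0.0356), the connexin of the arteriolar wall Gja4 (-1.10, SE 0.24, adjusted p = 0.0258) and the pericyte regulator Rgs5 (-0.81, SE 0.21, adjusted p = 0.0393) were lower and none was higher (median -0.21), and leaving out a mouse kept 3, 3 and 2 of 8 calls. Also lower there were 2 of 5 smooth muscle markers, Acta2 (-1.67, adjusted p = 0.0158, edgeR) and Tagln (-1.73, adjusted p = 0.0146), and 4 of 5 fibroblast markers. The part of these markers in the 3 calls was not tested. No gene of the list was called in RC/RC:Casp1KO against WT (median 0.11). Nos1, the nitric oxide synthase of the macula densa, lay lower in RC/RC than in WT without overlap, at 0.803 to 1.06 against 1.26 to 1.51 CPM, but missed the threshold (-0.62, SE 0.24, adjusted p = 0.128), as did the renin cell genes Gja5 (0.49, SE 0.29, adjusted p = 0.285) and Akr1b7 (0.23, SE 0.31, adjusted p = 0.658).

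Downstream of the AT1 receptor, 16 of 17 listed genes were tested, and 4 were higher and none lower in RC/RC than in WT (median 0.10), where 9.76% of all genes were higher. They were Arrb2, an arrestin that uncouples the receptor (0.67, SE 0.13, adjusted p = 0.00985, edgeR), Grk5, a receptor kinase (0.62, SE 0.17, adjusted p = 0.0436), Rgs4, which shortens Gq signals (1.05, SE 0.21, adjusted p = 0.0109), and Cybb, the phagocyte NADPH oxidase (1.49, SE 0.17, adjusted p = 0.000901). Arrb2, Rgs4 and Cybb kept their calls in 8 of 8 fits with a mouse left out and Grk5 in 1 (adjusted p up to 0.117). Grk5 was lower in RC/RC:Casp1KO than in RC/RC (-0.71, SE 0.16, adjusted p = 0.0287, 3 of 8 fits), the 1 call of that comparison (median -0.06), and none was called in RC/RC:Casp1KO against WT (median 0.09). Cybb is also a gene of leukocytes, and all 5 leukocyte markers read here were higher in RC/RC than in WT.

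Among 20 genes of mineralocorticoid action and distal sodium transport, 5 were lower and none higher in RC/RC than in WT (median -0.31), where 3.18% of all genes were lower. Slc12a3, the thiazide-sensitive sodium chloride cotransporter, was at 1002, 958, 793 and 1161 CPM in WT mice, at 384, 146, 144 and 286 CPM in RC/RC mice and at 330, 896, 594 and 796 CPM in RC/RC:Casp1KO mice. RC/RC lay below WT without overlap (log2 fold change -2.03, SE 0.33, adjusted p = 0.00444, edgeR), and RC/RC:Casp1KO lay above RC/RC except for KO42, which fell below RC105 (1.44, SE 0.39, adjusted p = 0.0454, kept in 2 of 8 fits with a mouse left out). The genes of its kinase cascade that fell with it were Klhl3 (-1.48, SE 0.31, adjusted p = 0.0133), Wnk1 (-0.80, SE 0.21, adjusted p = 0.0336) and Wnk4 (-0.64, SE 0.12, adjusted p = 0.00782), of which Wnk4 was higher in RC/RC:Casp1KO than in RC/RC (0.66, SE 0.15, adjusted p = 0.0275, 4 of 8 fits). Slc12a3, Klhl3 and Wnk4 kept the call against WT in 8 of 8 fits and Wnk1 in 3 (adjusted p up to 0.0914).

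The fifth gene was Sgk1, a kinase that aldosterone induces, at 294, 245, 156 and 220 CPM in WT mice, 79.4, 117, 110 and 87.1 CPM in RC/RC mice and 49.9, 253, 43.1 and 111 CPM in RC/RC:Casp1KO mice. It fell by 1.22 in RC/RC against WT on the log2 scale (SE 0.21, adjusted p = 0.00569, edgeR, 8 of 8 fits with a mouse left out), and of the RC/RC:Casp1KO mice KO42 and KO70 lay below every mouse of both other groups, KO105 among RC/RC and KO60 among WT mice (0.21 against RC/RC, SE 0.50, adjusted p = 0.805). The epithelial sodium channel genes, further targets of aldosterone, were not called, with log2 fold changes against WT of -0.33 for Scnn1a (SE 0.20, adjusted p = 0.307), 0.08 for Scnn1b (SE 0.18, adjusted p = 0.804) and 0.51 for Scnn1g (SE 0.21, adjusted p = 0.148). Hsd11b2, which protects the receptor from glucocorticoids, lay higher in RC/RC at 270 to 334 CPM than in WT at 119 to 261 CPM but missed the threshold (0.74, SE 0.24, adjusted p = 0.0762). With Xist class as a covariate Hsd11b2 (0.81, adjusted p = 0.00906) and Scnn1g (0.53, adjusted p = 0.0357) were called higher and Per1 lower (-0.86, adjusted p = 0.0392, edgeR) in RC/RC against WT. Hsd11b2 was then lower in RC/RC:Casp1KO than in RC/RC (-0.39, adjusted p = 0.0490), and Sgk1 (-1.28, adjusted p = 0.0489), Klhl3 (-0.62, adjusted p = 0.00993) and Fkbp5 (-1.55, adjusted p = 0.00448) were lower in RC/RC:Casp1KO than in WT. Without it Slc12a3 and Wnk4 were the 2 calls of the list in RC/RC:Casp1KO against RC/RC, none was lower (median 0.10), and no gene was called in RC/RC:Casp1KO against WT (median -0.26).

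Of the 14 V-ATPase subunits that work with the (pro)renin receptor, 1 was called, Atp6v0c, the proteolipid of the membrane ring. It was at 313, 279, 246 and 256 CPM in WT mice, at 72.7, 71.5, 83.7 and 95.9 CPM in RC/RC mice and at 86.1, 82.4, 80.9 and 90.3 CPM in RC/RC:Casp1KO mice. All mice with the RC allele lay far below all WT mice, with a log2 fold change of -1.76 for RC/RC (SE 0.14, adjusted p = 0.000194, edgeR) and -1.68 for RC/RC:Casp1KO against WT (SE 0.10, adjusted p = 8.4e-05), and RC/RC:Casp1KO did not pass against RC/RC (0.06, adjusted p = 0.780). Atp6v0c lies on chromosome 17, 380 kb before Pkd1, the gene that carries the RC allele, and the part of this linkage in the result was not tested. The other 13 subunits were not called in any comparison, although in RC/RC:Casp1KO against WT all 14 log2 fold changes lay below 0 (median -0.32) and 9 of 14 showed no overlap, where 6.50% of all genes did in that direction. With Xist class as a covariate, 5 of the 14 were called in that comparison, all lower, and 2 in RC/RC against WT. The medians were -0.19 in RC/RC against WT and -0.17 in RC/RC:Casp1KO against RC/RC. Scaling by the library total alone moved the median of all genes in RC/RC:Casp1KO against WT from 0.01 to 0.14.

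Peptidases of the proximal tubule, listed as neighbours of Mme and Enpep in the brush border, had a median log2 fold change of -0.41 over 11 genes in RC/RC against WT. The 1 call was Cndp2, a dipeptidase of the cytosol and not of the brush border, which was lower (-1.98, SE 0.50, adjusted p = 0.0315, edgeR, 3 of 8 fits with a mouse left out). None of the other 10 was called without a covariate, and with Xist class as a covariate Dpep1 was also lower (-0.65, adjusted p = 0.0163, edgeR). Over 10 genes the median was 0.41 in RC/RC:Casp1KO against RC/RC, with Xpnpep2 higher (0.81, SE 0.19, adjusted p = 0.0328, 3 of 8 fits) and none lower. The median was 0.09 in RC/RC:Casp1KO against WT, where Dpep1 was lower (-0.90, SE 0.13, adjusted p = 0.0134, 8 of 8 fits). Cndp2 differed within WT, at 370 and 319 CPM in WT2 and WT3 and 1534 and 1160 CPM in WT4 and WT6, the split that Xist also shows.

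**Figure D4:**
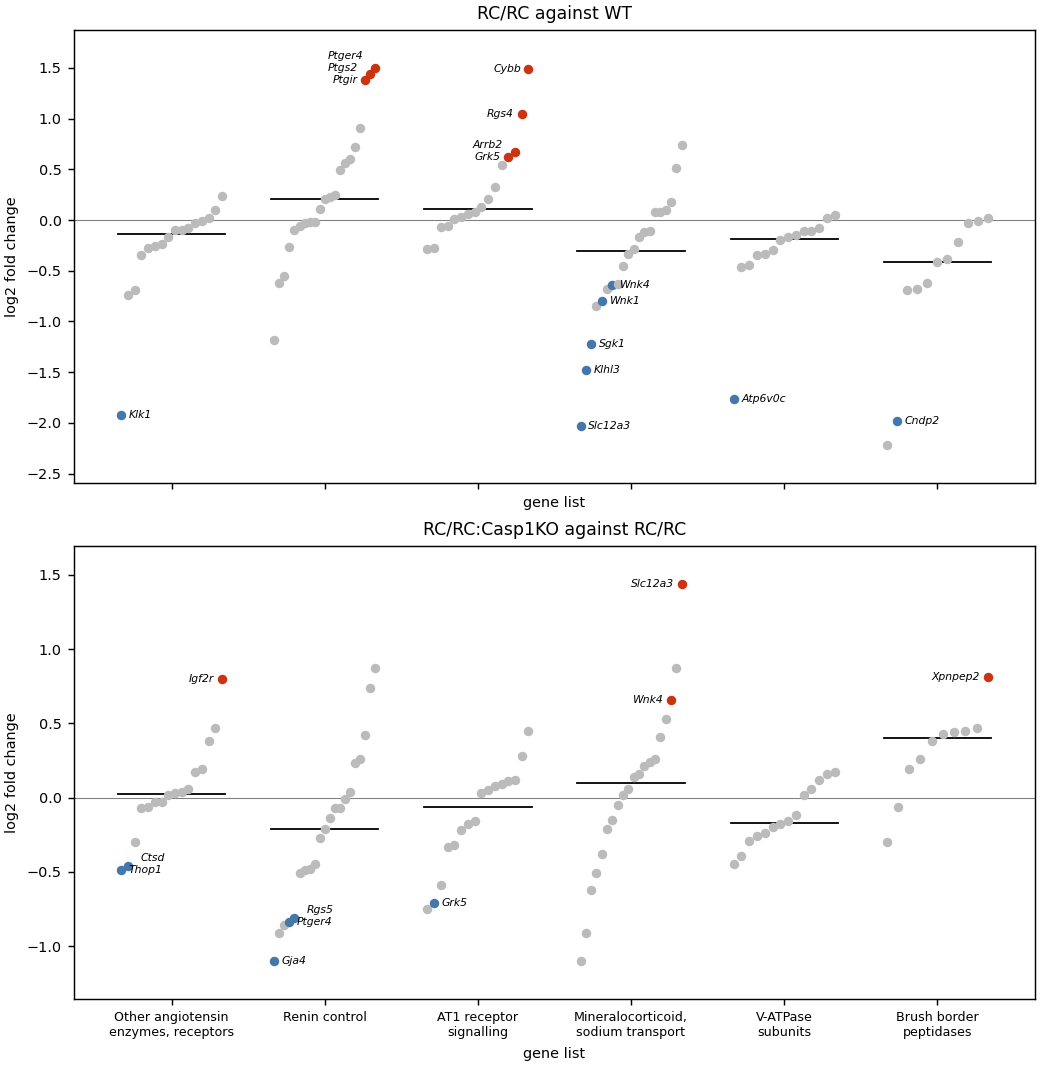
Log2 fold changes (y axes) of the genes of the 6 lists (x axis, a point for each gene tested, sorted within a list) in RC/RC against WT (upper panel) and RC/RC:Casp1KO against RC/RC (lower panel), red for called higher, blue for called lower, grey for not called, with a black line at the median of each list. Slc12a3, at -2.03 and 1.44, is the called gene with the largest log2 fold change in each panel.

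Markers of the cells that hold these genes moved between the groups as well. The summed CPM of 10 proximal tubule markers, led by Slc34a1, was 12800 to 17549 in WT, 6346 to 13671 in RC/RC and 13290 to 16228 in RC/RC:Casp1KO mice. In RC/RC against WT, Cubn and Slc5a2 were lower (median -0.73), in RC/RC:Casp1KO against RC/RC, Lrp2 and Cubn were higher (median 0.40), and none was called in RC/RC:Casp1KO against WT. Distal convoluted tubule markers summed to 818 to 1201, 160 to 402 and 359 to 926 CPM in the same order, led by Slc12a3 itself, and Slc12a3 and Pvalb, 2 of 3, were lower in RC/RC than in WT, with Slc12a3 higher in RC/RC:Casp1KO than in RC/RC. Fibroblast markers, led by Col3a1, summed to 117 to 168, 544 to 1307 and 198 to 457 CPM, with 5 of 5 higher in RC/RC than in WT, 4 of 5 lower in RC/RC:Casp1KO than in RC/RC and Dcn higher in RC/RC:Casp1KO than in WT. Leukocyte markers, led by Cd74, summed to 254 to 412, 692 to 934 and 538 to 985 CPM, with 5 of 5 higher in RC/RC than in WT and Cd74 higher in RC/RC:Casp1KO than in WT. Of the smooth muscle markers, among which Acta2 is also made by activated fibroblasts, Acta2 and Tagln were higher in RC/RC than in WT and lower in RC/RC:Casp1KO than in RC/RC. The part of these markers in the levels of the 9 genes was not tested.

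Other cells of the kidney were read in the same way. Pdgfrb, 1 of 4 mesangial and pericyte markers, was higher in RC/RC than in WT, Nphs1, 1 of 6 podocyte markers, was lower, and none of the 7 endothelial markers, 4 thick ascending limb markers or 3 collecting duct markers tested was called in any comparison without a covariate. Lcn2, Havcr1, Krt18 and Vcam1, 4 of 6 markers of cystic and injured tubules, of which Spp1 was the most abundant, were higher in RC/RC than in WT, and Krt19 was lower in RC/RC:Casp1KO than in RC/RC. Among sources of other tissue, adrenal cortex markers summed to 2.49 to 5.48 CPM and were nearly all Star, with Cyp11b2 at 0 outside KO60, and mast cell markers were nearly all Kit, which tubule cells also express. Without a covariate none was called of the 1 adrenal marker and the 1 or 2 mast cell markers with enough reads to be tested. Ttr, 1 of 4 liver markers, was lower in RC/RC:Casp1KO than in WT. Adipose markers, led by Cidec, summed to 316 CPM in RC139, against 0.161 to 38.4 CPM in the other mice. In both comparisons against WT none of the 4 had enough reads in enough mice to be tested, and in RC/RC:Casp1KO against RC/RC 3 were tested and none was called. Without RC139 Agtr1a had a log2 fold change against WT of -0.40 (adjusted p = 0.0759, edgeR).

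With Xist class as a covariate no marker call was lost and further markers were called by edgeR. In RC/RC against WT the endothelial markers Cdh5 (0.62, adjusted p = 0.0213), Pecam1 (0.41, adjusted p = 0.0424) and Tie1 (0.48, adjusted p = 0.0461) and the injury markers Spp1 and Krt19 were then higher, and Slc12a1 of the thick ascending limb (-0.63, adjusted p = 0.0481), Slc34a1 and Lrp2 of the proximal tubule and Ttr were lower. Against RC/RC, RC/RC:Casp1KO kidneys then had lower Cdh5 (-0.59, adjusted p = 0.0361), Pecam1 (-0.46, adjusted p = 0.0320), Krt18, Vcam1 and Pdgfra and higher Slc5a2, Slc5a12 and Star, the adrenal marker (0.70, adjusted p = 0.0319). Against WT they had higher Lcn2, Havcr1, Notch3 and Egfl7 and lower Cldn16 and Lmod1.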

How the data were processed

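The authors had poly(A) RNA libraries from 12 kidneys sequenced and analyzed by Novogene. The submitters' processing notes name CASAVA 1.8, STAR and mm10. The counting tool, annotation and strand setting are not given in the sources used here. The deposited counts are raw reads per gene and mouse, without normalization, and the authors also deposited a gene length in base pairs, which was used for FPKM. The authors' own FPKM, fold changes, p-values and adjusted p-values from DESeq2 in the same table were not used. Columns of unknown group numbered 0. Counts of each of the 18 same-group pairs of mice differed beyond counting error (chi-square over its degrees of freedom, 15.7 to 128), so no pair was the same library. The table's coordinates overlapped RefSeq GRCm38.p6 for 9 of 9 genes.

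Each pair of groups was fitted with 8 mice in edgeR 4.0.16 (R 4.3.3) with TMM and filterByExpr, and p was adjusted over all genes tested. The study's own tool, DESeq2 (1.42.0), was an alternative. Each SE was taken as the log2 fold change over the root of edgeR's F statistic. CPM used TMM factors of 12 libraries. FPKM is that CPM per kilobase. Ratios within a library had 0.5 added to each count and were tested by exact permutation (scipy 1.17.1). Other alternatives were RLE size factors, the library total alone, no filter, at least 10 counts in every library, a dispersion shared by 12 libraries, limma 3.58.1 on log2(FPKM + 1) with FPKM from library totals, each mouse left out, Agtr1a and Agtr1b summed, and, added after seeing the data, 1 surrogate variable from sva 3.50.0 and, as a covariate, whether a mouse had over 1000 Xist reads. The fits were tested on simulated data. The members, the lists and the alternatives were chosen with earlier results of these data known. The text names the 9 members, Casp1, Pkd1, sex-linked genes, a preset group of genes of the system, up to 4 called genes of each list with the largest change, the leading gene of each marker list and the 3 genes most like each member. Some genes that the rule names are not reported here. Per1, Fkbp5, Adcy6 and the markers called only with the Xist covariate were named after their values were seen.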

Additional observations from a re-analysis of the deposited data

Results flagged for a closer look

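Of 81 groups of 4 mice examined among the named genes, 3 held a mouse whose distance from the nearest of the others exceeded Dixon's 95% critical value, and chance alone marks about 1 group in 20. Agt in RC105, at 112 CPM, stood apart from the 79.9 to 85.1 CPM of the other RC/RC mice, and KO60 reached 111 CPM. Casp1 in WT2 was at 2.05 CPM against 1.29 to 1.41 CPM in the other WT mice. Cyp11b2 in KO60, at 0.0382 CPM, rests on 1 read, where the other mice of the group had 0.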

How the results depend on the processing

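No member changed the sign of a called value under any alternative, but uncalled values near 0 did with a mouse left out, those of Agt in RC/RC:Casp1KO against RC/RC (-0.17 to 0.09), of Mme in RC/RC against WT (-0.59 to 0.12) and, in RC/RC:Casp1KO against WT, of Nr3c2 (-0.08 to 0.14) and Enpep (-0.17 to 0.11), the last also at -0.02 with 1 surrogate variable or Xist class as a covariate. Among settings other than leaving out a mouse, 216 member values stayed on their side of the threshold and 3 lost the call. With a mouse left out 186 stayed on their side, 5 lost the call and 1 gained it. Uncalled values that changed sign are counted as having stayed. The number of members called in RC/RC against WT was 0, in place of 1, with the library total alone, with no filter and with limma on log2(FPKM + 1), and 0 to 2 with a mouse left out. The count of all genes called in RC/RC against WT was 1162 to 2440 with a mouse left out. In RC/RC:Casp1KO against RC/RC it was 3207 with DESeq2, 998 with the library total alone, 1052 with limma and 438 to 2789 with a mouse left out, against 1797. In RC/RC:Casp1KO against WT it was 1366 with DESeq2, 167 with at least 10 counts in every library, 1347 with 1 surrogate variable and 1257 with Xist class as a covariate, both added after seeing the data, and 108 to 547 with a mouse left out, against 311. The share of called genes that were higher was 75.4%, 62.1% and 55.9% in the 3 comparisons in the order given, and 86.1%, 81.8% and 79.8% with the library total alone. It was 64.0% with DESeq2 in RC/RC against WT, and 84.2%, 79.5% and 76.1% with limma. With a mouse left out it ran from 67.5% to 84.2% in RC/RC against WT. In RC/RC:Casp1KO against RC/RC it then ran from 51.1% to 87.0%, and in RC/RC:Casp1KO against WT from 47.8% to 60.5%. The causes were not tested. Calls of list genes in RC/RC:Casp1KO against RC/RC were lost with both the library total alone and limma for Ctsd, Thop1, Ptger4, Rgs5, Grk5 and Slc12a3, and with limma for Gja4, with no filter for Ctsd and with a shared dispersion for Igf2r. In RC/RC against WT they were lost with limma for Ptgs2, Grk5, Wnk1 and Cndp2, with the library total alone for Wnk1 and with a shared dispersion for Sgk1 (adjusted p = 0.0867). With Xist class as a covariate no call of a list gene was lost, and calls numbered 5 in place of 3 among the renin control genes and 8 in place of 5 among the sodium transport genes in RC/RC against WT, and 6 in place of 3 among the renin control genes and 3 in place of 1 downstream of the AT1 receptor in RC/RC:Casp1KO against RC/RC. In RC/RC:Casp1KO against WT they numbered 3 in place of 0 among the sodium transport genes and 3 in place of 1 both among the other angiotensin enzymes and receptors and among the proximal tubule peptidases. The renin control calls that this covariate added in RC/RC against WT were Gja4, higher (0.95, adjusted p = 0.0319, edgeR), and Adcy6, lower (-0.57, adjusted p = 0.0492). Igf2r (-0.67, adjusted p = 0.0355) and Dpep1 (-0.65, adjusted p = 0.0163) of the other lists were then also called lower in RC/RC against WT. No paired analysis was possible because the columns carry no replicate numbers. With 4 mice a group and the spread seen in Ren1, Mme and Ace, small differences could not be told from none. Even a value of over 2 SE missed the threshold in Ren1, in RC/RC:Casp1KO against WT (-1.12, SE 0.50, adjusted p = 0.234, edgeR). At 5 reads or fewer Agtr1b and Agtr2 gave no comparison.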

Other observations

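Atp6v0c (chr17:24163866-24169702, mm10) shares its chromosome region with Pkd1 (chr17:24549950-24596514). Within 5 Mb of Pkd1, 26 of 186 genes tested (14.0%) were called in RC/RC against WT, where 12.9% of the 15057 other genes were called. In RC/RC:Casp1KO against RC/RC 29 of 188 (15.4%) were called against 11.6% elsewhere, and in RC/RC:Casp1KO against WT 13 of 190 (6.84%) against 1.97% elsewhere. These shares are descriptions without a test, and the part of the flanking sequence carried with the RC allele was not tested.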
